A study of Mus musculus with 13 samples.

Results

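The collagen chain genes of the mouse were followed in hippocampus of Kmt2d+/βGeo mice, a model of Kabuki syndrome, and of wild-type mice. The genes were taken by name, as every gene whose symbol on the array is Col, a number, a and a number. The family, and the lists set beside it, were chosen with earlier results of these data known. There were 44 of them among the 19938 genes tested. Each was represented by 1 probe set, and where a gene had several (Col6a5 and Col6a6, with 2 each) the one with the highest mean over all arrays was taken. By type they were 11 fibrillar chains, 9 FACIT chains (fibril-associated collagens with interrupted triple helices), 6 chains of collagen IV, 6 of collagen VI, 3 of the network collagens VIII and X, 4 transmembrane chains, 2 multiplexins, and the single chains of collagens VII, XXVI and XXVIII.

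Collagens are secreted or membrane-bound proteins in which α chains wind into a triple helix, after prolyl and lysyl residues have been hydroxylated in the endoplasmic reticulum. Fibrillar collagens bear tensile load, FACIT collagens coat fibrils, collagen IV forms the sheet of every basement membrane, and collagen VI forms beaded filaments beside it. In the brain, most collagen is made outside the neural tissue itself, by fibroblasts of the meninges and of the perivascular space and by cells of the vessel wall and the choroid plexus stroma. A few transmembrane collagens, among them Col25a1, are made by neurons.

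Whole hippocampi of 13 mice were profiled on 13 Affymetrix arrays in 2 experiments. The groups were 3 Kmt2d+/βGeo and 3 wild-type mice in experiment 2, which were given saline 3 times a day by injection, and 3 Kmt2d+/βGeo and 4 wild-type mice in experiment 1, which had no injections. All were C57BL/6J mice of 1 to 2 months on standard chow, and the labels call all of them female but for 1 wild-type mouse of experiment 1 (replicate 3), whose sex they give as not known. The allele is a gene trap carried in 1 copy in every cell, and the tissue was not divided by cell type, so that fewer cells of a type and less RNA per cell cannot be told apart.

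Values are log2 intensities as deposited, and a difference of 1 log2 unit is a 2-fold change. Xist, the transcript of the inactive X chromosome, stood at 4.81 on the array of the mouse of unknown sex and at 10.70 to 11.48 on the others. One Kmt2d probe set (10432294) was at 7.88 to 8.18 in Kmt2d+/βGeo against 8.32 to 8.76 in wild-type mice of experiment 2, and at 7.17 to 7.47 against 7.87 to 7.90 in experiment 1. The other (10432298) was at 9.49 to 9.80 in Kmt2d+/βGeo against 9.46 to 9.82 in wild-type mice of experiment 2, and at 9.84 to 9.95 against 9.82 to 9.83 in experiment 1. The 12 dentate granule cell markers averaged 8.32 to 9.16 on the 13 arrays. The 11 markers of striatal projection neurons, a cell type that the hippocampus lacks, averaged 7.88 to 8.21 in the 3 groups other than wild type of experiment 1, where replicate 2 reached 10.65. Arrays of the same experiment correlated at 0.985 to 0.998 over all genes and arrays of different experiments at 0.936 to 0.958.

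Promoter windows were read from RefSeq (build GRCm38.p6), from 250 bases before to 50 after each annotated start, for the 35 collagen genes that the table holds. Those of Col6a3 and Col1a2 are shown because these chains had the lowest p-values for genotype among the collagens. The window of Col4a2 is shown because it overlaps that of Col4a1, which runs on the opposite strand. Col6a3 lies at chr1:90843922-90844221 on the minus strand, Col1a2 at chr6:4505368-4505667 on the plus strand and Col4a2 at chr8:11312555-11312854 on the plus strand. Capitals mark matches to CCAAT or GGGCGG on either strand in Col1a2 (Col6a3 has none), and in Col4a2 the 78 bases shared with the window of Col4a1.
Col6a3: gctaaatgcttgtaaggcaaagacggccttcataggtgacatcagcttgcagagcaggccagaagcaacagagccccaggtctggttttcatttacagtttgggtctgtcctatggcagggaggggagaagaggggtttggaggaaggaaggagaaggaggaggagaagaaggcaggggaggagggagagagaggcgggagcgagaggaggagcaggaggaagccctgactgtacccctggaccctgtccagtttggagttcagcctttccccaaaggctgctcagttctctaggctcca
Col1a2: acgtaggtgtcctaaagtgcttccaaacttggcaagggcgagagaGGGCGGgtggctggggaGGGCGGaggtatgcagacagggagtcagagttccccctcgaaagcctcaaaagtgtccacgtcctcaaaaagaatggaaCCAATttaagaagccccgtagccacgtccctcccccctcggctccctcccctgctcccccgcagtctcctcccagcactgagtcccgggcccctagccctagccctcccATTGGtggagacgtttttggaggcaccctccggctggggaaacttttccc
Col4a2: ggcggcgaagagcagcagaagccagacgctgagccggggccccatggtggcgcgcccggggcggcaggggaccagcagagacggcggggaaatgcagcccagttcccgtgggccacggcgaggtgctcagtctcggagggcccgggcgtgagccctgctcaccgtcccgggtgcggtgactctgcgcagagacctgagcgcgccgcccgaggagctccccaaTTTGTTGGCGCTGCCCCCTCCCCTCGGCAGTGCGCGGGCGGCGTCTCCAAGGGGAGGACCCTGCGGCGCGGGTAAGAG

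Motifs were searched on both strands of the windows, and none of the motifs lies within another. GGGCGG, the core of a GC box, was in 23 of the 38 windows of the 35 collagen genes (60.5%), against 35.7% of all 32841 windows in the table. CCAAT was in 13 of 38 (34.2%) against 37.4%, and TATAAA in 5 of 38 (13.2%) against 13.6%. The windows with TATAAA belonged to Col3a1, Col10a1, Col11a2, Col13a1 and Col17a1. The observed over expected frequency of CpG had a median of 0.46 in the collagen windows and of 0.38 in all windows, while the share of windows over 0.6 was 28.9% of the collagen windows and 35.8% of all windows. The annotated starts of Col4a1 and Col4a2, on opposite strands, lay 21 bases apart, each inside the other transcript, so that the transcripts overlapped at their starts. Those of Col4a5 and Col4a6, the pair on the X chromosome, lay 1343 bases apart, with a gap between the transcripts.

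Of the collagens, Col6a3 came nearest to a difference between the genotypes, and it did not pass the threshold. Col6a3 encodes the long α3 chain of collagen VI, which assembles with the α1 and α2 chains and is made by fibroblasts. It was at 7.06, 7.02 and 6.90 in Kmt2d+/βGeo against 7.35, 7.40 and 7.43 in wild-type mice of experiment 2. In experiment 1 it was at 6.46, 6.67 and 6.75 in Kmt2d+/βGeo against 6.88, 6.82, 6.90 and 6.90 in wild-type mice. In each experiment every Kmt2d+/βGeo mouse was below every wild-type mouse. Over both experiments the difference was -0.32 ± 0.06 log2 units (SE, 6 against 7 mice), or 80.2% of the wild-type level. It ranked 5 of 19938 genes by p, with an adjusted p of 0.292 in limma. The exact permutation of genotype within experiments gave p = 0.00143, without adjustment for the number of genes. It is the smallest that the 700 regroupings allow, and it restates the separation of the arrays. Within experiment 2 the difference was -0.40 ± 0.09 (limma adjusted p = 0.227) and within experiment 1 it was -0.25 ± 0.08 (limma adjusted p = 0.946), or -0.163 without Kmt2d+/βGeo replicate 1. These 2 differences were not distinguishable from each other (-0.15 ± 0.12, limma adjusted p = 0.809).

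No collagen gene passed an adjusted p of 0.05 for genotype over both experiments in limma, and neither did any other gene (0%). At an unadjusted p under 0.05 there were 2 of 44, Col6a3 and Col1a2, both lower in Kmt2d+/βGeo mice, against a background of 2.61% of all genes lower and 5.25% in either direction. The median difference of the 44 genes was -0.03, against 0.00 for all genes tested. The difference was below 0 for 30 of 44 (68.2%), against 49% of all genes. The share at an unadjusted p under 0.05 was near the background. Only Col6a3 was lower without overlap in both experiments, as were 0.186% of all genes.

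**Figure D1:**
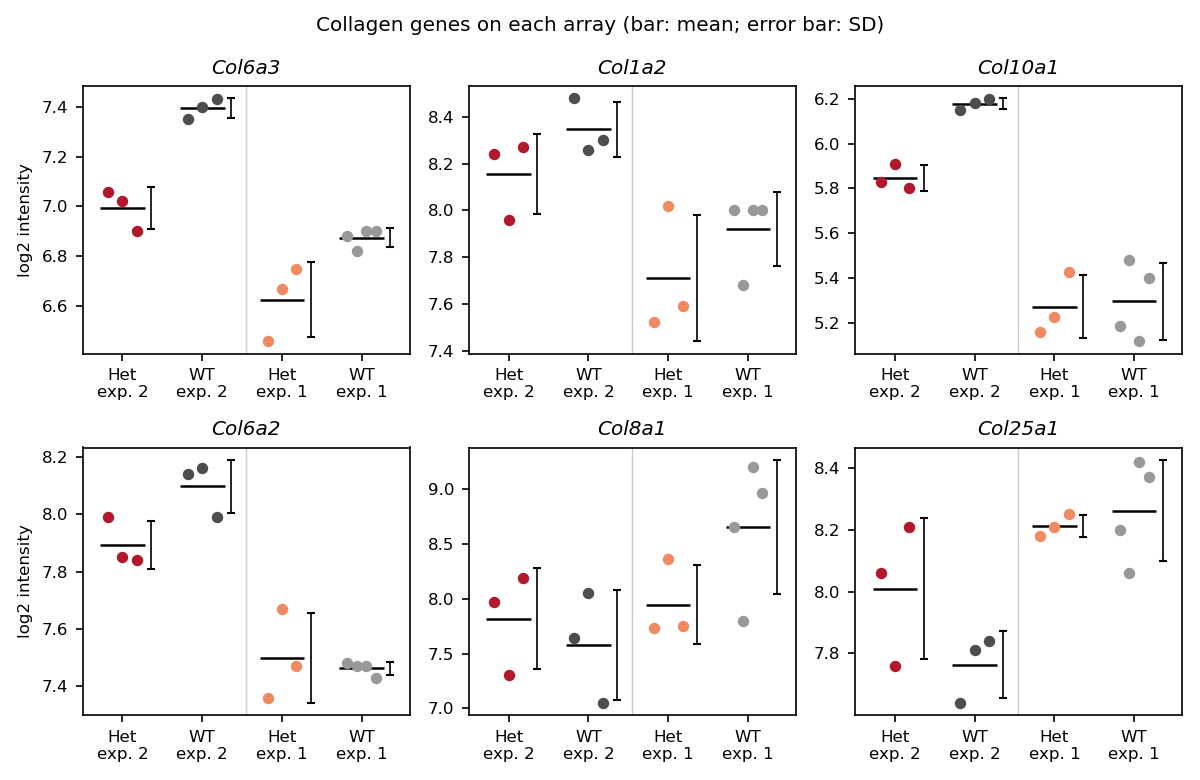
Deposited log2 intensity (vertical axes) of Col6a3, Col1a2, Col10a1, Col6a2, Col8a1 and Col25a1, 1 point per mouse, in the groups Kmt2d+/βGeo (Het) and wild type (WT) of experiment 2 and then of experiment 1, with each group's mean as a bar and its SD as an error bar. The Kmt2d+/βGeo points of Col6a3 lie below the wild-type points in both experiments, while those of the other 5 genes overlap the wild-type points in at least 1 experiment.

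All 6 chains of collagen VI had a difference below 0 over both experiments (median -0.11), 5 of 6 in experiment 2 (median -0.21) and 4 of 6 in experiment 1 (median -0.06), and none passed the adjusted threshold. With array weights Col6a2 was at 0.019, above 0. Col6a1 ranged from -0.169 to -0.007 over the settings other than the main one, and Col6a6 was at -0.02 ± 0.08. The sign was also uniform in the smaller groups of collagens VIII and X (3 of 3 below 0), the multiplexins (2 of 2) and collagens VII, XXVI and XXVIII (3 of 3). The mean over the 6 chains, Col6a3 among them, was 7.45 to 7.66 in Kmt2d+/βGeo against 7.67 to 7.83 in wild-type mice of experiment 2. In experiment 1 it was 7.01 to 7.13 in Kmt2d+/βGeo against 7.05 to 7.29 in wild-type mice, so the genotypes overlapped there. The nearest arrays of experiment 2, at 7.66 and 7.67, were almost level. Of the single chains only Col6a3 and Col6a2 were without overlap in experiment 2. The mean without Col6a3 was not computed.

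Col6a1 and Col6a2 encode the short chains that pair with the α3 chain. Col6a2 was at 7.99, 7.85 and 7.84 in Kmt2d+/βGeo against 8.14, 8.16 and 7.99 in wild-type mice of experiment 2, and at 7.36, 7.67 and 7.47 against 7.48, 7.47, 7.47 and 7.43 in experiment 1. The genotypes of experiment 2 did not overlap, but the nearest arrays were 7.9893 and 7.9919, and those of experiment 1 overlapped. The differences were -0.20 ± 0.09 in experiment 2 (limma adjusted p = 0.47) and 0.04 in experiment 1. Col6a1 was at 8.0, 7.93 and 7.69 in Kmt2d+/βGeo against 8.25, 7.94 and 8.09 in wild-type mice of experiment 2, and at 7.55, 7.75 and 7.75 against 7.53, 8.19, 7.54 and 7.69 in experiment 1. Both pairs overlapped, and the difference over both experiments was -0.13 ± 0.10.

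The remaining chains, Col6a4, Col6a5 and Col6a6, can take the place of the α3 chain. Col6a5 was at 7.27, 7.36 and 7.19 in Kmt2d+/βGeo against 7.45, 7.31 and 7.37 in wild-type mice of experiment 2, and at 6.68, 6.70 and 6.53 against 6.66, 6.78, 6.68 and 6.85 in experiment 1. The genotypes overlapped in both, with a difference of -0.10 ± 0.06 (limma adjusted p = 0.934). The exact permutation p was 0.0457, without adjustment for the number of genes. Its second probe set differed by -0.04. Col6a4 differed by -0.11 ± 0.11 and Col6a6 by -0.02 ± 0.08 over both experiments.

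Markers of the cells that make collagen VI were set beside it. The 20 meningeal fibroblast markers, taken without collagens, had a median difference of -0.13, with 18 of 20 below 0 and none past the adjusted threshold. Their mean was 7.48 to 7.69 in Kmt2d+/βGeo against 7.53 to 7.94 in wild-type mice of experiment 2, and 7.70 to 8.08 against 7.46 to 8.23 in experiment 1. The 14 mural cell markers had a median of -0.11, with 11 of 14 below 0 and none past the threshold. Their mean was 7.64 to 7.79 in Kmt2d+/βGeo against 7.85 to 7.89 in wild-type mice of experiment 2, without overlap, and 7.77 to 7.94 against 7.69 to 8.03 in experiment 1. The 14 endothelial markers had a median of 0.02. The part of these cells in the values of Col6a3 was not tested.

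**Figure D2:**
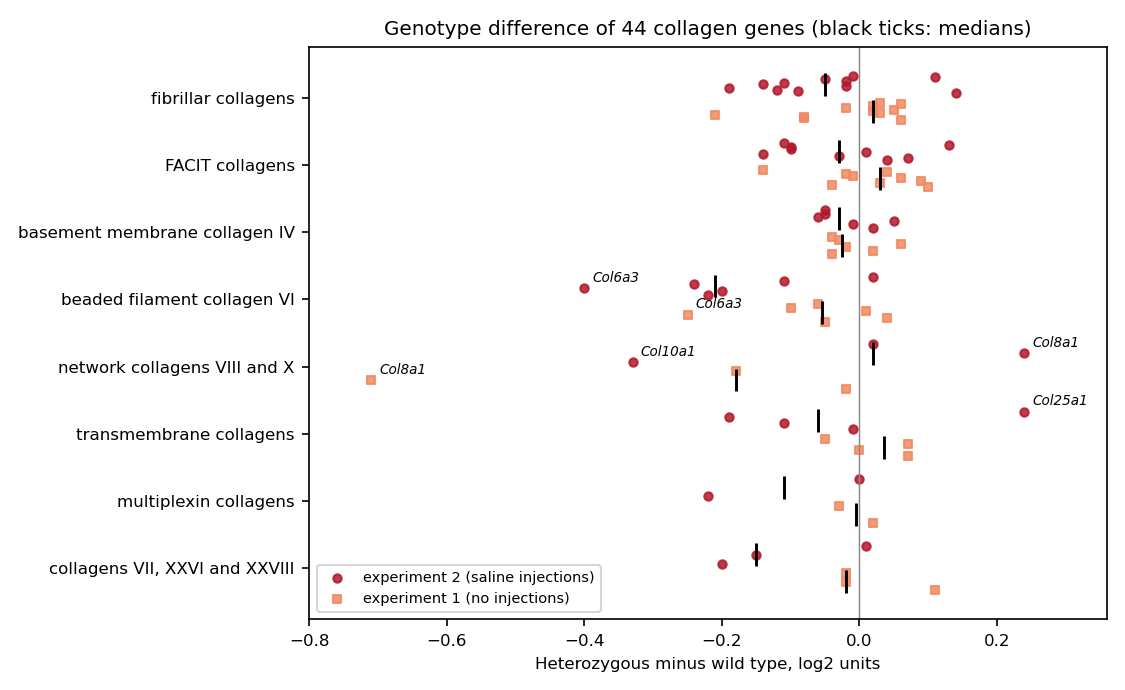
Kmt2d+/βGeo minus wild type (horizontal axis, log2 units) for each of the 44 collagen genes by collagen type, with circles for experiment 2, squares for experiment 1 and black ticks for the type medians. Col6a3 lies left of 0 in both experiments, at -0.40 and -0.25, and Col8a1 lies on opposite sides, at 0.24 in experiment 2 and -0.71 in experiment 1.

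Among the fibrillar chains, the median difference over both experiments was -0.02 and 7 of 11 were below 0. Col1a2, the α2 chain of collagen I, was at 8.24, 7.96 and 8.27 in Kmt2d+/βGeo against 8.48, 8.26 and 8.30 in wild-type mice of experiment 2. In experiment 1 it was at 7.52, 8.02 and 7.59 in Kmt2d+/βGeo against 8.0, 7.68, 8.0 and 8.0 in wild-type mice. The genotypes overlapped in both experiments. The difference was -0.20 ± 0.09 (limma adjusted p = 0.934, exact permutation p = 0.0671), at -0.19 in experiment 2 and -0.21 in experiment 1. The value in experiment 1 was -0.118 without Kmt2d+/βGeo replicate 1 and -0.367 without Kmt2d+/βGeo replicate 2.

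Its partner Col1a1, the α1 chain, was at 8.45, 8.41 and 8.35 in Kmt2d+/βGeo against 8.69, 8.54 and 8.34 in wild-type mice of experiment 2, and at 7.87, 8.17 and 8.0 against 8.09, 7.91, 8.01 and 8.36 in experiment 1. The arrays overlapped in both, and the difference was -0.10 ± 0.08. Col3a1, which joins collagen I in soft connective tissue and vessel walls, was at 7.61, 7.64 and 7.84 in Kmt2d+/βGeo against 7.97, 7.58 and 7.63 in wild-type mice of experiment 2, and at 6.83, 7.05 and 7.02 against 6.94, 6.94, 6.84 and 7.21 in experiment 1. Its difference was -0.02 ± 0.08, with overlap in both experiments.

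Col11a1 and Col11a2 encode minor fibrillar chains best known from cartilage. Col11a1 was at 7.86, 7.87 and 7.79 in Kmt2d+/βGeo against 7.81, 7.62 and 7.68 in wild-type mice of experiment 2, and at 6.79, 7.02 and 7.14 against 6.81, 7.15, 6.75 and 6.99 in experiment 1. Col11a2 was at 8.27, 8.10 and 8.08 in Kmt2d+/βGeo against 8.15, 8.30 and 8.28 in wild-type mice of experiment 2, and at 7.43, 7.44 and 7.54 against 7.38, 7.71, 7.5 and 7.62 in experiment 1. Both overlapped in both experiments, and their differences had opposite signs, 0.10 ± 0.08 for Col11a1 and -0.09 ± 0.06 for Col11a2.

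No chain of collagen IV passed the threshold. Its 6 chains had differences from -0.05 to 0.01 over both experiments, each with an SE of 0.05 to 0.07. Col4a1 and Col4a2 form the collagen IV of the vessel basement membrane. Col4a1 was at 8.10, 7.71 and 7.73 in Kmt2d+/βGeo against 7.89, 7.68 and 7.90 in wild-type mice of experiment 2, and at 7.48, 7.61 and 7.56 against 7.52, 7.59, 7.68 and 7.55 in experiment 1. Col4a2 was at 8.07, 8.03 and 7.84 in Kmt2d+/βGeo against 7.94, 8.0 and 8.05 in wild-type mice of experiment 2, and at 7.80, 7.81 and 7.90 against 7.71, 7.85, 7.99 and 7.72 in experiment 1. Both genes overlapped in both experiments, at -0.01 ± 0.07 and 0.00 ± 0.06.

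Of the 9 FACIT chains 4 were below 0, and their median was 0.00. Col9a3, a chain of the collagen that coats cartilage fibrils, was at 8.81, 8.53 and 8.82 in Kmt2d+/βGeo against 8.79, 8.99 and 8.73 in wild-type mice of experiment 2, and at 7.74, 8.07 and 8.0 against 8.08, 8.10, 7.97 and 8.15 in experiment 1. The genotypes overlapped, with a difference of -0.12 ± 0.07. The transmembrane chains had a median of -0.01. Col25a1, a neuronal collagen whose shed ectodomain is found in amyloid plaques, was at 8.06, 7.76 and 8.21 in Kmt2d+/βGeo against 7.64, 7.81 and 7.84 in wild-type mice of experiment 2. In experiment 1 it was at 8.18, 8.21 and 8.25 in Kmt2d+/βGeo against 8.20, 8.06, 8.42 and 8.37 in wild-type mice. It overlapped in both, at 0.24 ± 0.12 in experiment 2 and -0.05 in experiment 1.

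Within experiment 2 no collagen gene passed the adjusted threshold in limma (0% of all genes), and 5 of 44 had an unadjusted p under 0.05, all lower in Kmt2d+/βGeo mice, where the background was 5.34% lower and 4.9% higher. They were Col6a3, Col10a1, Col6a2, Col15a1 and Col26a1. Of the 44, 31 (70.5%) had a difference below 0, against 52.9% of all genes. Col6a3, Col10a1, Col6a2 and Col26a1 were lower without overlap, or 9.09% against 5.17% of all genes. Within experiment 1 none passed, against 0.0201% of all genes. A difference below 0 was seen in 23 of 44 (52.3%), against 42.4% of all genes. Col6a3 and Col8a1 had an unadjusted p under 0.05, both lower, beside 2.16% of all genes, and Col6a3 alone was lower without overlap, as were 2.75% of all genes.

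Col10a1, the network collagen of hypertrophic cartilage, was at 5.83, 5.91 and 5.80 in Kmt2d+/βGeo against 6.15, 6.18 and 6.20 in wild-type mice of experiment 2. In experiment 1 it was at 5.16, 5.23 and 5.43 in Kmt2d+/βGeo against 5.19, 5.48, 5.12 and 5.40 in wild-type mice. The genotypes were apart in experiment 2 and mixed in experiment 1. The differences were -0.33 ± 0.10 (limma adjusted p = 0.359; exact permutation p = 0.1, the smallest that 3 against 3 mice allow) and -0.02, and the difference between them was -0.31 ± 0.14 (limma adjusted p = 0.761).

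Col26a1, a short collagen with an EMI domain, was at 8.15, 7.94 and 8.09 in Kmt2d+/βGeo against 8.31, 8.22 and 8.26 in wild-type mice of experiment 2, and at 7.61, 7.75 and 7.81 against 7.61, 7.66, 7.46 and 7.71 in experiment 1. It was lower without overlap in experiment 2, at -0.20 ± 0.09, and overlapped in experiment 1, where the difference was 0.11. Col15a1, a multiplexin of the outer layer of vessel basement membranes, was at 7.43, 7.40 and 7.35 in Kmt2d+/βGeo against 7.41, 7.70 and 7.73 in wild-type mice of experiment 2, and at 7.10, 7.03 and 7.04 against 7.09, 7.17, 6.86 and 7.02 in experiment 1. Its genotypes overlapped in both, with a difference of -0.22 ± 0.10 in experiment 2 (limma adjusted p = 0.472).

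Col8a1 was the collagen whose genotype difference had opposite signs in the 2 experiments at the greatest distance. It encodes the α1 chain of a short-chain network collagen of endothelium and smooth muscle. It was at 7.97, 7.30 and 8.19 in Kmt2d+/βGeo against 7.64, 8.05 and 7.05 in wild-type mice of experiment 2. In experiment 1 it was at 7.73, 8.36 and 7.75 in Kmt2d+/βGeo against 8.66, 7.80, 9.20 and 8.97 in wild-type mice. The genotypes overlapped in both experiments, and wild-type replicate 2 was the low one of its group in experiment 1. The difference was 0.24 ± 0.33 in experiment 2 (limma adjusted p = 0.821) and -0.71 ± 0.31 in experiment 1 (limma adjusted p = 1; exact permutation p = 0.114). The difference between these was 0.96 ± 0.45 (limma unadjusted p = 0.0493, adjusted p = 0.761). Without wild-type replicate 2 of experiment 1 the difference there was -1.0 (limma adjusted p = 0.221; the lowest and highest over the other settings were 0.168 and 1).

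The 16 choroid plexus epithelium markers measured, among them transthyretin, moved beside Col8a1. Their mean was 7.86, 7.38 and 8.37 in Kmt2d+/βGeo against 7.5, 8.29 and 6.77 in wild-type mice of experiment 2, and 7.69, 8.0 and 7.79 against 8.94, 7.79, 9.17 and 9.20 in experiment 1. Within every group the array with the highest Col8a1 was also high in these markers, and in both experiments the lowest wild-type array was the same for both. Their median genotype difference was 0.37 in experiment 2, with 1 of 16 below 0, and -1.02 in experiment 1, with 16 of 16 below 0. The part of choroid plexus tissue in the values of Col8a1 was not tested. Col8a2, the other chain of collagen VIII, was at 7.61, 7.12 and 7.24 in Kmt2d+/βGeo against 7.14, 7.40 and 7.36 in wild-type mice of experiment 2, and at 6.69, 6.93 and 6.87 against 7.13, 6.80, 6.99 and 7.10 in experiment 1. Its genotypes overlapped in both, and it differed by 0.02 in experiment 2 and by -0.18 ± 0.12 in experiment 1.

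**Figure D3:**
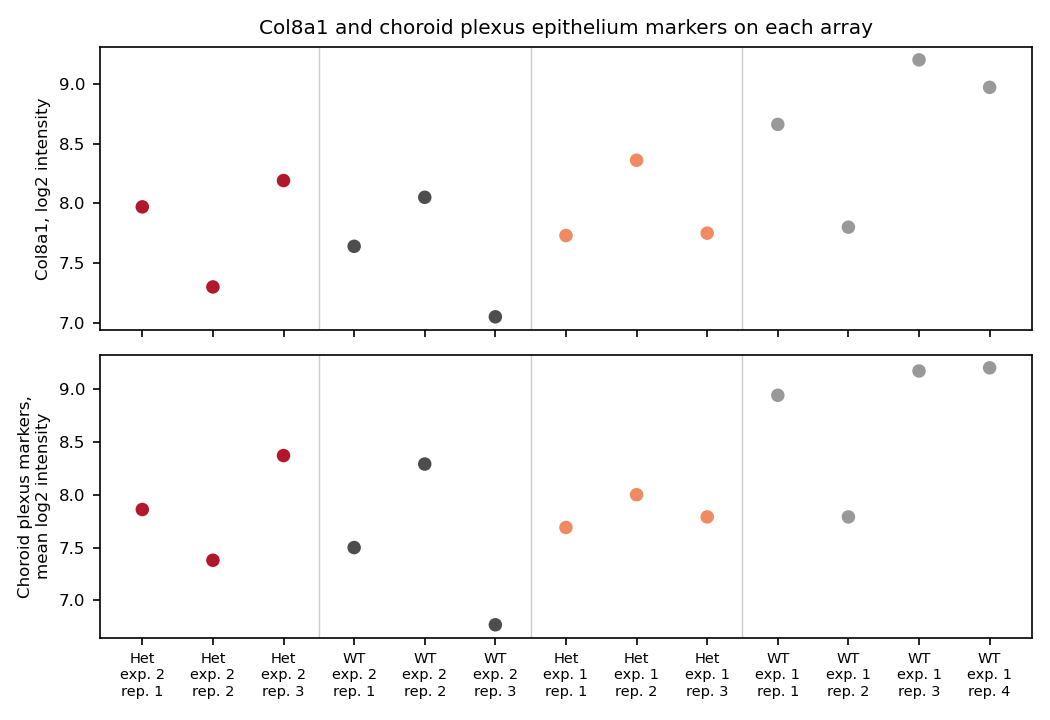
Log2 intensity of Col8a1 (upper panel) and mean log2 intensity of the 16 choroid plexus epithelium markers (lower panel) on each of the 13 arrays, 1 point per mouse, coloured by group. The arrays high in Col8a1 are also high in the markers, among them 3 wild-type arrays of experiment 1 with marker means of 8.94 to 9.20.

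For the difference of the genotype effects between the experiments, no collagen gene and no other gene passed the adjusted threshold in limma (0%). At an unadjusted p under 0.05 there were 3 of 44, Col26a1, Col10a1 and Col8a1, or 6.82% against 6.53% of all genes. Col23a1, a transmembrane collagen, followed at -0.26 ± 0.13 (limma adjusted p = 0.766). It was at 8.02, 7.87 and 7.73 in Kmt2d+/βGeo against 8.0, 8.06 and 8.12 in wild-type mice of experiment 2, and at 7.57, 7.72 and 7.67 against 7.48, 7.58, 7.54 and 7.72 in experiment 1, with overlap in both.

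Genes whose products make, modify, bind or degrade collagen did not pass the threshold between the genotypes. The smallest adjusted p among them in limma was 0.795 over both experiments, 0.344 within experiment 2 (Itgb1, the β1 integrin, 0.41 ± 0.12) and 0.686 within experiment 1 (Itga11, the α11 integrin, 0.30 ± 0.09). The members of lowest p over both experiments are given here for each list. Enzymes and chaperones of collagen folding had a median difference of 0.00 over 18 genes, with 9 below 0, and P4ha3, a prolyl 4-hydroxylase subunit, was at -0.19 ± 0.06, the peptidyl-prolyl isomerase Fkbp14 at 0.21 ± 0.08 and the prolyl 3-hydroxylase P3h3 at -0.13 ± 0.07. Genes of propeptide cleavage and cross-linking had a median of -0.04 with 7 of 11 below 0, and Pcolce, the enhancer of procollagen C-proteinase, was at -0.55 ± 0.19, the lysyl oxidase homologue Loxl4 at -0.11 ± 0.06 and the proteinase Tll1 at 0.09 ± 0.07. Collagen receptors had a median of -0.01 with 5 of 9 below 0, and Mrc2, an endocytic collagen receptor, was at -0.25 ± 0.10, Itga11 at 0.16 ± 0.07 and Itgb1 at 0.15 ± 0.10.

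Laminins, nidogens and the other basement membrane partners of collagen IV had a median of -0.06 with 10 of 15 below 0. Nid1, which links laminin to collagen IV, was at -0.28 ± 0.10, and the laminin chains Lamb2 and Lamc3 were at -0.17 ± 0.08 and 0.12 ± 0.06. Collagen-degrading metalloproteinases and their inhibitors had a median of -0.05 with 7 of 10 below 0, where the gelatinase Mmp2 was at -0.21 ± 0.07 and the inhibitors Timp3 and Timp2 were at -0.26 ± 0.10 and -0.23 ± 0.10. For comparison, the median over all genes tested was 0.00.

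The intensities of the collagens differed far more between the experiments than between the genotypes. The mean over the 44 genes was 6.97 to 7.16 on the arrays of experiment 1, whose medians over all genes were 6.74 to 6.90. In experiment 2 it was 7.51 to 7.67, with array medians of 7.04 to 7.08. Whether each chain was detected above background was not tested, so the differences given here are of intensity. Of the 44 genes, 41 were higher in experiment 2, 2 were lower (Col25a1 and Col8a1) and Col12a1 did not pass, with genotype in the model and an adjusted p of 0.05 in limma. In the background 77.2% of all genes passed, 41.8% higher and 35.4% lower. The median difference was 0.63 log2 units over the collagens and 0.07 over all genes. In 33 of 44 genes (75%) every array of experiment 2 was above every array of experiment 1, as in 25.4% of all genes, and in 0 of 44 it was the reverse, against 27.5%. The labels tie the saline injections to the experiment, so the injections and anything else that differed between the experiments cannot be told apart.

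**Figure D4:**
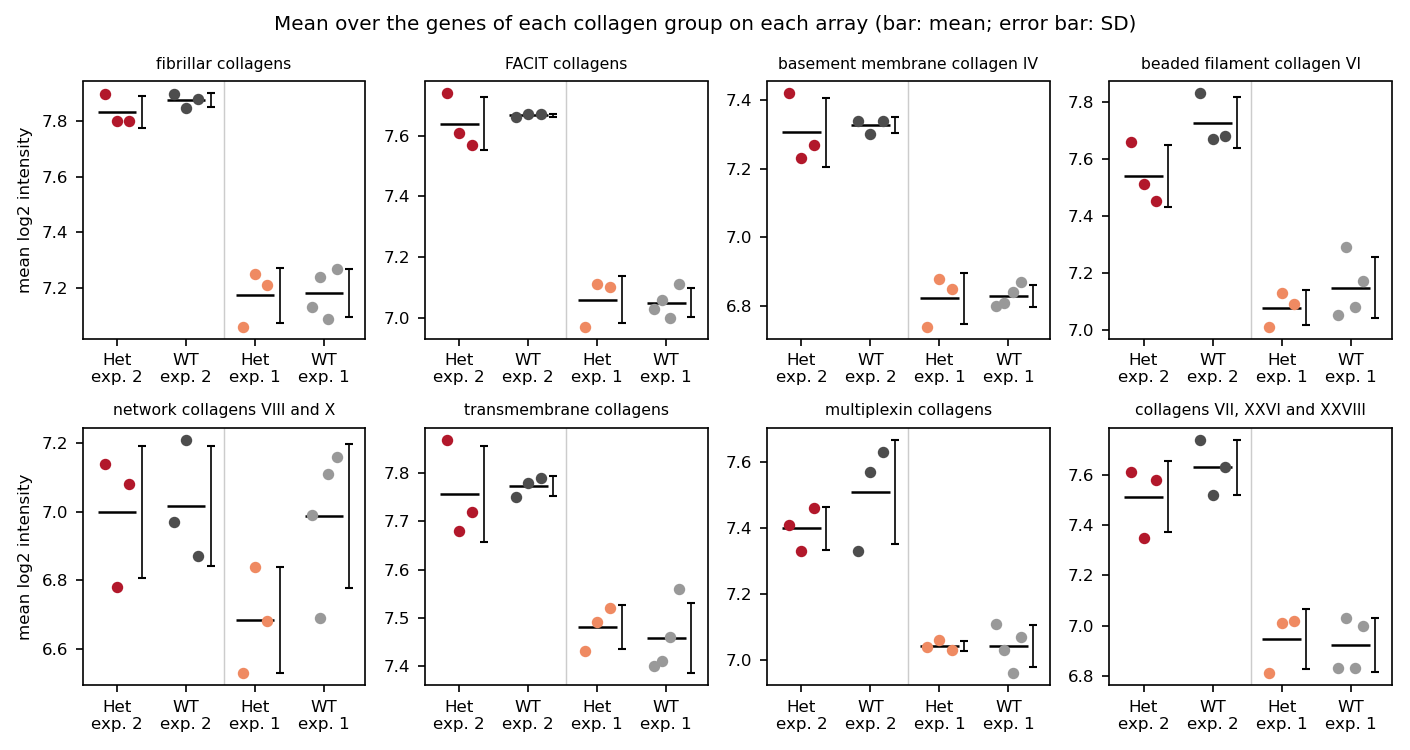
Mean log2 intensity over the genes of each collagen type (vertical axes, 1 panel per type), 1 point per mouse, in the groups Kmt2d+/βGeo (Het) and wild type (WT) of experiment 2 and then of experiment 1, with group means as bars and SDs as error bars. In every panel but that of collagens VIII and X, all arrays of experiment 2 stand above all arrays of experiment 1.

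The 6 genes with the lowest p were Col16a1, Col5a1, Col20a1, Col4a6, Col13a1 and Col9a2. Col20a1, a FACIT chain, was at 8.09, 7.93 and 7.83 in Kmt2d+/βGeo and 7.80, 7.88 and 8.15 in wild-type mice of experiment 2, against 6.90, 7.08 and 7.02 in Kmt2d+/βGeo and 6.87, 7.10, 6.78 and 7.01 in wild-type mice of experiment 1. All 6 arrays of experiment 2 stood above all 7 of experiment 1. The difference was 0.98 ± 0.08, or 1.97-fold (limma adjusted p = 5.44e-09).

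Col16a1, another FACIT chain, was at 8.0, 7.85 and 7.82 in Kmt2d+/βGeo and 7.90, 7.91 and 7.95 in wild-type mice of experiment 2, against 7.06, 7.14 and 7.17 in Kmt2d+/βGeo and 7.09, 7.15, 6.95 and 7.19 in wild-type mice of experiment 1. It was 1.74-fold higher in experiment 2 (0.80 ± 0.06, limma adjusted p = 2.59e-09). Col9a2, a chain of collagen IX, was at 8.75, 8.60 and 8.73 in Kmt2d+/βGeo and 8.55, 8.62 and 8.51 in wild-type mice of experiment 2, against 7.60, 7.84 and 7.84 in Kmt2d+/βGeo and 7.60, 7.94, 7.54 and 7.80 in wild-type mice of experiment 1. Neither gene overlapped between the experiments, and Col9a2 was higher by 0.88 ± 0.07 (limma adjusted p = 1.32e-08).

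Col5a1, which sets the diameter of collagen I fibrils, was at 7.83, 7.83 and 7.79 in Kmt2d+/βGeo and 7.99, 7.78 and 7.83 in wild-type mice of experiment 2, against 6.95, 7.10 and 7.12 in Kmt2d+/βGeo and 6.97, 7.16, 6.93 and 7.07 in wild-type mice of experiment 1. It was higher without overlap, by 0.80 ± 0.06 (limma adjusted p = 4.85e-09). Col4a6, on the X chromosome, was at 6.75, 6.71 and 6.74 in Kmt2d+/βGeo and 6.87, 6.83 and 6.66 in wild-type mice of experiment 2, against 5.96, 6.12 and 6.09 in Kmt2d+/βGeo and 6.06, 6.07, 6.11 and 6.15 in wild-type mice of experiment 1. It too was higher without overlap, by 0.68 ± 0.05 (limma adjusted p = 9.18e-09). Col13a1, a transmembrane collagen of the neuromuscular junction, was at 7.88, 7.72 and 7.85 in Kmt2d+/βGeo and 7.83, 7.88 and 7.76 in wild-type mice of experiment 2, against 7.16, 7.18 and 7.27 in Kmt2d+/βGeo and 7.11, 7.13, 7.10 and 7.19 in wild-type mice of experiment 1. It was higher without overlap, by 0.65 ± 0.05 (limma adjusted p = 1.19e-08).

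Of the main chains, Col4a2 was higher in experiment 2 by 0.16 ± 0.06 (limma adjusted p = 0.0267), Col4a1 by 0.26 ± 0.07 (limma adjusted p = 0.00288), Col6a1 by 0.28, Col1a1 by 0.41, Col1a2 by 0.44, Col6a3 by 0.45, Col6a2 by 0.52 and Col3a1 by 0.74. After quantile normalisation of the 13 arrays these were 0.21 for Col4a2, 0.25 for Col4a1, 0.30 for Col6a1, 0.55 for Col1a1, 0.52 for Col1a2, 0.23 for Col6a3, 0.52 for Col6a2 and 0.62 for Col3a1. By type, the median as deposited and after quantile normalisation was 0.75 and 0.56 for FACIT chains, 0.69 and 0.62 for fibrillar chains, 0.58 and 0.55 for collagens VII, XXVI and XXVIII, and 0.56 and 0.29 for collagen IV. It was 0.52 and 0.36 for collagen VI, 0.45 and 0.36 for transmembrane chains, 0.41 and 0.26 for multiplexins, and 0.39 and 0.20 for collagens VIII and X, so the order of the types depended on the scaling.

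Both collagens that were lower in experiment 2 overlapped between the experiments. Col25a1 was lower at -0.36 ± 0.09 (limma adjusted p = 0.00122), with -0.20 in Kmt2d+/βGeo and -0.50 in wild-type mice. Col8a1 was lower at -0.63 ± 0.25 (limma adjusted p = 0.0278), with -0.12 in Kmt2d+/βGeo and -1.08 in wild-type mice. The adjusted p of Col8a1 ranged from 0.00701 to 0.0949 over the other settings and missed the threshold in 8 of 23, among them the array medians set equal (0.051). It also missed it without wild-type replicate 1 (0.0611) or 3 (0.0949) or Kmt2d+/βGeo replicate 2 (0.0603) of experiment 2, or without wild-type replicate 3 (0.0572) or 4 (0.0566) or Kmt2d+/βGeo replicate 2 (0.0513) of experiment 1. Col12a1, a FACIT chain that coats collagen I fibrils, was at 6.88, 6.84 and 6.89 in Kmt2d+/βGeo and 6.91, 6.89 and 6.69 in wild-type mice of experiment 2, against 6.96, 6.97 and 6.89 in Kmt2d+/βGeo and 6.88, 6.42, 7.17 and 6.89 in wild-type mice of experiment 1. Its arrays overlapped, at -0.04 ± 0.09 (limma adjusted p = 0.715).

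The scale of the arrays moved with the experiment. The median of an array lay between 7.04 and 7.08 in experiment 2, and between 6.74 and 6.90 in experiment 1, and genes of lower level were on the whole higher in experiment 2. With the array medians set equal, the collagens had a median of 0.72 and all genes one of 0.16, with 41 collagens higher and 1 lower. With the 13 arrays quantile normalised, the medians were 0.42 and -0.05, with 37 collagens higher, 3 lower (Col8a1, Col12a1 and Col25a1) and 4 that did not pass (Col6a4, Col8a2, Col14a1 and Col19a1). The calls over all genes were 41.8% higher and 35.4% lower as deposited, 50.3% and 31.3% with medians set equal, and 26.2% and 37.6% after quantile normalisation.

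Genes of the same level as the collagens were set beside them. The 8777 genes whose mean lay between those of the lowest and the highest collagen (5.62 to 8.37) had a median of 0.16 as deposited and of -0.04 after quantile normalisation, and 49.2% and 27.8% of them were called higher. In bins of 0.5 units of mean level, 41 of the 44 collagens lay above the median of their bin and 32 above its upper quartile, both as deposited and after quantile normalisation. The exceptions were Col8a1, Col12a1 and Col25a1.

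**Figure D5:**
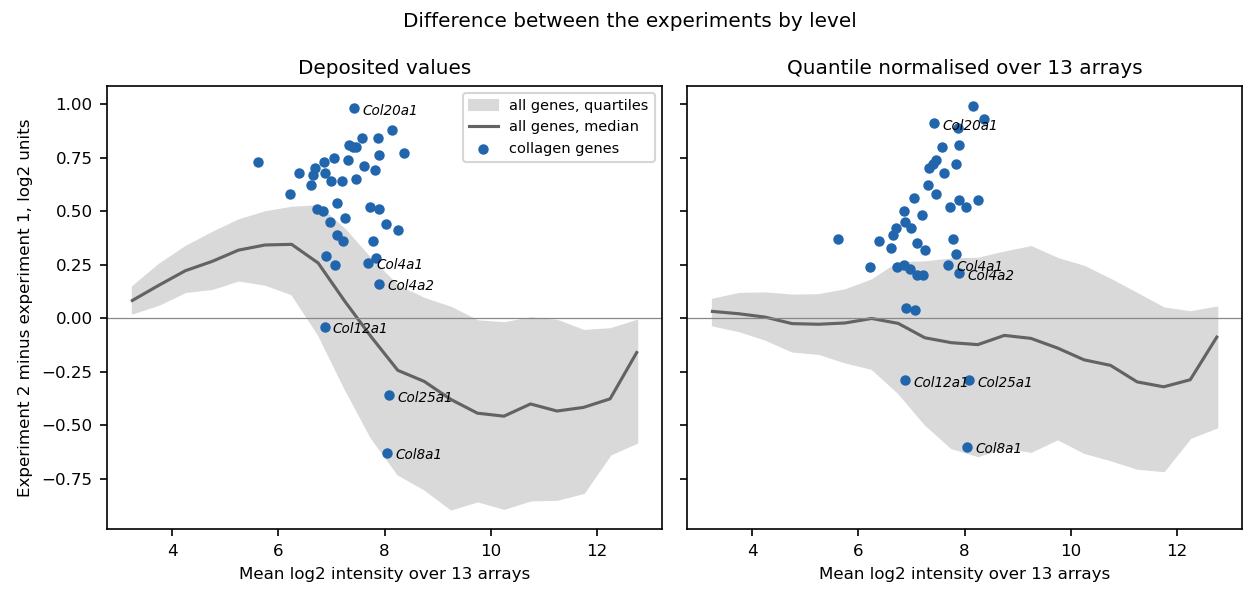
Experiment 2 minus experiment 1 (vertical axis, log2 units) against the mean log2 intensity over the 13 arrays (horizontal axis), as deposited on the left and quantile normalised on the right, with 1 point per collagen gene and the median (line) and quartiles (grey band) of all genes in bins of 0.5 units. In both panels 41 of the 44 collagens lie above the median of their bin, and Col8a1, Col12a1 and Col25a1 do not.

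The genes around the collagens were set beside the median of all genes in their own bin of level. Folding and hydroxylation genes had a median difference between the experiments of -0.32, with 3 higher and 11 lower of 18, and 7 of 18 lay above the median of their bin. The median was 0.14 for propeptide cleavage and cross-linking (3 higher and 1 lower of 11, 7 above their bin), -0.03 for receptors (2 and 3 of 9, 3 above), 0.04 for basement membrane partners (7 and 3 of 15, 8 above) and 0.01 for metalloproteinases with their inhibitors (3 and 4 of 10, 4 above). After quantile normalisation these medians were -0.21, 0.04, -0.21, -0.06 and -0.20 in the same order.

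The markers of the 4 cell types compared here had medians below 0. Those of meningeal fibroblasts were at -0.23 (5 higher and 9 lower of 20, 7 above the median of their bin), of mural cells at -0.13 (3 and 6 of 14, 5 above), of endothelium at -0.51 (3 and 10 of 14, 4 above) and of choroid plexus epithelium at -0.46 (0 and 6 of 16, 3 above). After quantile normalisation they were -0.43, -0.30, -0.39 and -0.60 in the same order. Markers of other cells were below 0 as well, at -0.43 as deposited for dentate granule cells, -0.42 for CA1 and -0.67 for CA3. Those of striatal projection neurons were at -0.52 and of oligodendrocytes at -0.63, while those of ependymal cells were at 0.06. The differences between these medians and that of the collagens were not tested.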

How the data were processed

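RNA of whole hippocampus, from 1 mouse per array, was measured on 13 Affymetrix gene arrays. The deposited table holds log2 intensities that the authors computed by RMA, with oligo named as the software per the submitters' processing notes. RMA summarises probes by median polish, which can give tied values. The sources used here do not state whether both experiments were normalised together. Of 35556 probe sets, 21789 had 1 gene symbol in the platform annotation and represented 19938 genes, with no filter on low values.

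Linear models were fitted in R 4.3.3 by limma 3.58.1 with moderated variances, and statmod 1.5.0 served the blocks. The genotype difference over both experiments and the difference between experiments came from 1 model with both as terms, and the differences within experiments from a model of the 4 groups. Tests were two-sided, with Benjamini-Hochberg adjustment over all genes and a threshold of 0.05. Permutation tests were exact, of genotype within experiments. The number of arrays limits the precision.

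Genes shown on every array were those of lowest p in each comparison (8 over both experiments, 4 in each experiment and for the difference of effects, 6 between experiments) and the main chains of each type. Col12a1 was added after its values were seen, as were Col25a1 and Col8a1 between experiments and Col25a1 and Col26a1 in experiment 2. Col21a1 is not analysed here. Members and lists were chosen with earlier results of these data known. Dcn is in both the meningeal fibroblast and the CA1 list. Medians over the remaining cell type lists are given here for genotype. Over both experiments they were -0.14 for ependymal cells, -0.43 for striatal neurons and 0.17 for dentate granule cells. They were -0.08 for CA1, 0.12 for CA3 and -0.03 for oligodendrocytes. In experiment 2 and then experiment 1 they were 0.07 and -0.32 for ependymal cells and 0.22 and -0.24 for oligodendrocytes. They were -0.06 and -0.72 for striatal neurons, 0.00 and 0.35 for dentate granule cells, -0.12 and -0.02 for CA1, and 0.08 and 0.15 for CA3. Other settings changed the probe sets used, the filter, the scaling, the variance model, array weights, blocks and the arrays included.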

Additional observations from a re-analysis of the deposited data

Results flagged for a closer look

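Col1a2 in wild-type mice of experiment 1 was picked out because 1 array lay far from the others. Replicate 2 was at 7.68 and the other 3 were tied at 8.0, so its gap to them was the whole range of the group, above Dixon's critical value for a group of 4. Chance picks out about 1 in 20 groups by this measure. Median polish can give such ties, and a tied group understates the spread between mice. Without replicate 2 the genotype difference of Col1a2 was -0.24 over both experiments, against -0.20 with it. The same array stood apart in marker means. It was at 10.65 for striatal neurons, against 8.20 to 8.22 on the other wild-type arrays of experiment 1. For meningeal fibroblasts it was at 7.46 against 8.17 to 8.23, and for choroid plexus at 7.79 against 8.94 to 9.20. The part of its tissue make-up in the Col1a2 value was not tested.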

How the results depend on the processing

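No collagen gene passed the genotype threshold under any of 26 other settings that tested it. Col6a3 was not tested with the lowest 50% of genes left out. Col10a1 was tested with neither the lowest 30% nor the lowest 50% left out. Of 903 gene values, 870 kept their sign and side of the threshold. Col6a3 ranged from -0.357 to -0.279 over both experiments (limma adjusted p 0.0587 to 0.923), and without the 3 arrays that stood apart in an earlier analysis (wild-type replicates 2 and 3 of experiment 1, Kmt2d+/βGeo replicate 3 of experiment 2) it was -0.308 (adjusted p 0.509). Genes near 0 turned sign over both experiments: Col4a2 at 0 after quantile normalisation; Col4a1 at 0.013, Col6a2 at 0.019 and Col25a1 at -0.019 with array weights; Col4a1 at 0.045 without those 3 arrays. Leaving out 1 array, Col3a1 ranged from -0.051 to 0.029, Col4a1 from -0.065 to 0.015 and Col4a2 from -0.015 to 0.035. Between the experiments, Col12a1 was at 0.056 with array medians set equal and from -0.109 to 0.015 leaving out 1 array, and at -0.29 it passed after quantile normalisation (limma adjusted p = 0.0169). Counts of all genes past the threshold for genotype over both experiments were 21 with array weights and 0 to 2 leaving out 1 array, against 0. In experiment 1, where 4 passed, they were 0 with every probe set or the lowest 50% of genes left out, 2 after quantile normalisation or with its own arrays only, 163 with array weights and 0 to 48 leaving out 1 array. In experiment 2, where 0 passed, they were 2 after quantile normalisation and 0 to 91 leaving out 1 array. Between the experiments, 26086 probe sets passed with every probe set tested, and 8020 genes and 17 collagens with the lowest 50% left out (fewer genes tested), against 15385 and 43. The collagen median there, 0.63, was 0.556 with the mean of a gene's probe sets, 0.506 with the lowest 50% left out, 0.723 with array medians set equal and 0.423 after quantile normalisation. No pairing of the mice by replicate number was seen: same-numbered mice correlated at -0.23 to 0.22, 1 of 6 pairs over 0.1, and 1 Kmt2d+/βGeo array was closest to its own number. Mice of different numbers correlated at -0.28 to 0.33, and so few pairs cannot exclude a pairing. With the replicate block 0 genes passed in experiment 1, Col3a1 was at 0.016 and Col4a2 at -0.014. Where no value shows it, the cause was not tested.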
